A study of Mus musculus with 70 samples.

Results

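The subject is a module of 33 genes for fatty acid oxidation and targets of the nuclear receptor PPAR-alpha, followed in mouse liver first and then in colon and cultured fibroblasts. Members were the rows of the deposited expression table whose gene symbol stands on a fixed list of 33 symbols. All 33 were found, each as 1 row, among 21859 genes. They fall into 9 roles: regulators (Ppara, Ppargc1a), fatty acid uptake, binding and storage (Cd36, Fabp1, Plin2), the carnitine shuttle (Cpt1a, Cpt2, Slc25a20), the mitochondrial beta-oxidation spiral (Acadm, Acadl, Acadvl, Acads, Hadh, Hadha, Hadhb, Acaa2), auxiliary enzymes for unsaturated fatty acids (Eci1, Eci2, Decr1, Decr2), peroxisomal beta-oxidation (Ehhadh, Hsd17b4, Acaa1a, Crot, Pex11a), acyl-CoA thioesterases (Acot1, Acot2, Acot3, Acot4), fuel choice and ketone bodies (Pdk4, Bdh1), and secreted or surface targets (Angptl4, Vnn1).

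Fatty acids enter mitochondria as carnitine esters and are shortened there in a repeated cycle of dehydrogenation, hydration, oxidation and thiolysis, while peroxisomes begin the breakdown of very long and branched chains. In hepatocytes PPAR-alpha, bound by fatty acids and paired with a retinoid X receptor, switches on many of these enzymes during fasting, and the coactivator PGC-1alpha (Ppargc1a) raises the same program. The liver turns much of the resulting acetyl-CoA into ketone bodies, whereas colonocytes burn short-chain fatty acids made by gut bacteria.

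RNA was sequenced from mice and cells that switch on a constitutively active kinase with doxycycline. The caMEK1 allele drives ERK signaling, a model of oncogene-induced senescence, and the caMKK6 allele drives p38 signaling, a model of stress-induced senescence. All samples were labelled male C57BL/6. The mice were chimeras. In caMEK1 and caMKK6 mice mCherry marked the kinase cells, which the study takes as primary senescent, and GFP marked the cells around them. Hepatocytes and colon crypt epithelium were sorted by color after dead cells were gated out. Treated mice drank doxycycline for 7 days, in water at 2 mg/mL for controls and caMKK6 animals but 0.2 mg/mL for caMEK1 animals, so that kinase and dose cannot be told apart. The labels give no day for mice without doxycycline. Liver gave 23 libraries in 9 groups from 16 mice. These were control mice without doxycycline, GFP cells (3 libraries), control mice on doxycycline, GFP cells (2) and mCherry cells (2), caMEK1 mice without doxycycline, GFP cells (3), and on it, GFP cells (3) and mCherry cells (3), and caMKK6 mice without doxycycline, GFP cells (3), and on it, GFP cells (2) and mCherry cells (2). Both colors of a treated animal were sequenced, so mCherry and GFP libraries of treated mice are pairs. Colon gave 23 libraries in the same 9 groups from 16 mice, with 2 control, 2 caMEK1 and 3 caMKK6 mice on doxycycline. Mouse embryonic fibroblasts (MEF) of either kinase genotype gave 24 libraries in 8 groups of 3, without doxycycline at day 2 and with 2 µg/mL in the medium at days 2, 4 and 7. The labels do not say whether MEF replicates were separate cultures. Control mice listed 0 FPKM of the MEK1 transgene in every library. Their mCherry cells also listed 0 FPKM of the MKK6 transgene, so in control mice mCherry came without a listed kinase. The promoter behind the transgenes is not given in the sources used here.

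Values are FPKM, fragment counts scaled by transcript length and by the mapped depth of the library. Whole reads recovered from the FPKM steps came to 9096993 to 14297505 per liver library, 6358587 to 16647561 in colon and 10499019 to 17150052 in MEF. The kinase entries followed the labels, with caveats. In liver caMEK1 mCherry cells the MEK1 transgene was listed at only 5.55 to 14.1 FPKM and mCherry at 4.24 to 12.2, above 0.133 to 0.238 for the MEK1 transgene in GFP cells of the same mice, whereas control mCherry cells had mCherry at 3985 to 4727. In caMKK6 liver mCherry cells the MKK6 transgene stood at 216 in animal 1 and 1211 in animal 2, and GFP cells of these animals had 1.51 and 30.9. GFP cells of control mice on doxycycline listed mCherry at 678 to 750. In MEF labelled caMKK6, 5 libraries also listed the MEK1 transgene at 10.96 to 16.53 FPKM. The 9 hepatocyte markers found in the table summed to 42400.3 to 42649.8 FPKM in control mCherry cells, 72321 to 105375 under caMEK1 and 29305 to 34477 under caMKK6, and all 4 adipocyte markers (Adipoq, Plin1, Lep, Cfd) were under 1 FPKM in every liver and MEF group.

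In untreated liver the module spanned several orders of magnitude per unit length. Fabp1, the liver fatty acid binding protein, stood at 2345 ± 814 FPKM (SD, n = 9), followed by the mitochondrial thiolase Acaa2 at 399.9 ± 47.9 and the peroxisomal carnitine octanoyltransferase Crot at 134 ± 16.6. Hsd17b4 (127 ± 11.6) and Acadvl (127 ± 12.7) came next and did not differ from Crot beyond their spread. The lowest were the thioesterases Acot2 (0.77 ± 0.221) and Acot3 (0.182 ± 0.0643). Ppara itself stood at 28.5 ± 6.65 and Ppargc1a at 2.08 ± 0.557.

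In liver, most called members were lower with either kinase. In caMEK1 mCherry cells 18 of 33 members fell and 1 rose against mCherry cells of control mice, where 27.1% of the 10371 genes tested passed, 10.7% upward and 16.3% downward (limma on log2(FPKM + 1), Benjamini-Hochberg adjusted p under 0.05, as throughout). In caMKK6 mCherry cells 13 fell and 3 rose, where 38.2% of all genes passed, 28.9% upward and 9.29% downward. With libraries scaled to a common median of log2 values, 18 fell and 1 rose under caMEK1 and 15 fell and 0 rose under caMKK6. With quantile normalization the caMEK1 calls dropped from 19 to 11 (10 fell and 1 rose), and 14 fell and 1 rose under caMKK6. The median log2 fold change of the members was -0.81 under caMEK1 and -0.55 under caMKK6, and of all genes tested -0.04 and 0.25. Both comparisons use the same 2 control libraries, so their values stand side by side here and are not counted as separate evidence. Without control mCherry library 1 the calls dropped from 19 to 5 under caMEK1 and from 16 to 2 under caMKK6, without control mCherry library 2 to 12 and 6, without caMEK1 mCherry library 1 to 12, and without caMKK6 mCherry library 1 to 2. Under caMEK1 5 calls survived leaving out any 1 library (Acaa1a, Acadvl, Cpt2, Crot and Ehhadh), and under caMKK6 0 did. In sorted bulk cells, fewer cells of a type and less RNA per cell cannot be told apart.

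The surrounding GFP cells were compared with separate controls. Against GFP cells of untreated mice of the same genotype, 25 members fell and 1 rose in caMEK1 mice (38.5% of all genes passed, 6.46% upward and 32% downward), and 23 fell and 1 rose in caMKK6 mice (19% of all genes passed, 5.21% upward and 13.8% downward). The members' median log2 fold change was -1.19 against -0.25 for all genes in caMEK1 mice, and -1.09 against -0.07 in caMKK6 mice. The 23 members that fell in caMKK6 mice were all among the 25 that fell in caMEK1 mice. The share of all genes that fell in both genotypes was not computed. In caMEK1 mice 21 calls survived leaving out any 1 library, but quantile normalization cut the 26 calls to 14, and 12 of the 26 held under all other settings tried. In caMKK6 mice 24 calls dropped to 1 without library 1 of the treated GFP cells, and Fabp1 alone survived leaving out any 1 library. Doxycycline without a kinase passed the test for 0 members in control GFP cells (0.0868% of all genes passed, 0.0482% upward and 0.0386% downward, and 2 members had an unadjusted p under 0.05). Of the 33 members, 28 had a negative log2 fold change there, with a median of -0.28 against 0.04 for all genes. For 21 members both treated libraries lay below all 3 untreated ones, so a lack of overlap in GFP cells also occurred without a kinase. The share of all genes without overlap was not computed. With 2 treated against 3 untreated libraries, the 0 calls do not show that doxycycline left the module unchanged.

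**Figure D1:**
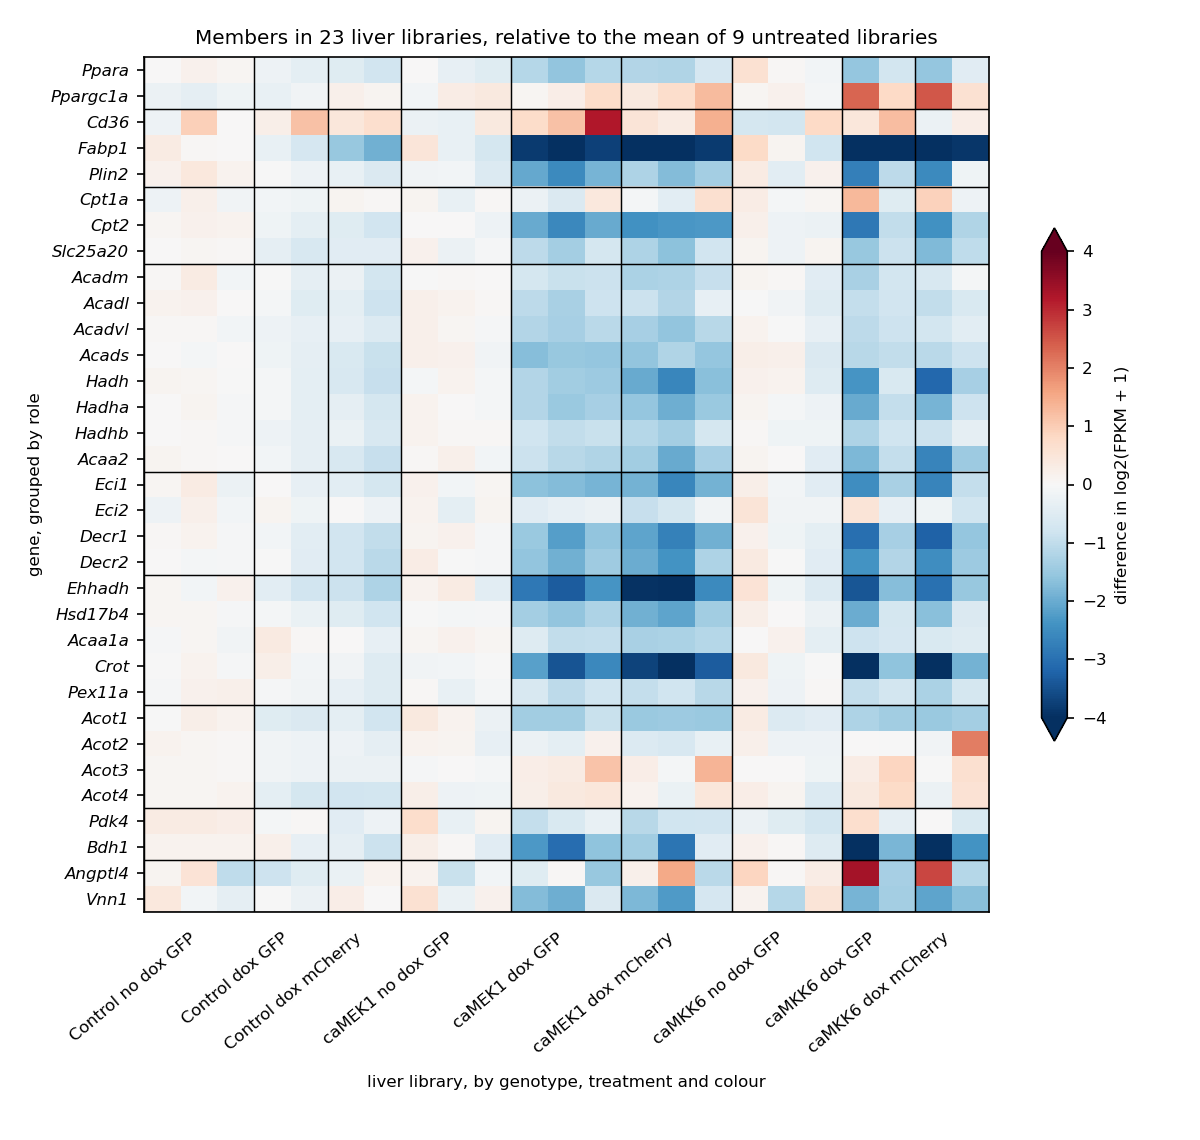
Difference of each of the 33 members (rows, by role) from the mean of the 9 untreated liver libraries, in log2(FPKM + 1), in each of 23 liver libraries (columns, by group), with the color scale limited to 4 on either side. Most rows of the 10 libraries from caMEK1 and caMKK6 mice on doxycycline are below the untreated mean in both colors, with Fabp1, Crot and Ehhadh among the darkest rows, and control mCherry libraries are mildly below it.

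Control mCherry libraries were not neutral. Of the 33 members, 16 and 25 were below all 9 untreated libraries in control mCherry libraries 1 and 2, where 26.7% and 39.8% of all tested genes were, and the members' median difference from the untreated mean was -0.35 and -0.72 on the log2(FPKM + 1) scale. In control GFP cells on doxycycline the counts were 2 and 11 members, with 5.02% and 6.88% of all tested genes. The 3 caMEK1 mCherry libraries had 27, 28 and 23 members below all untreated libraries and the 2 caMKK6 mCherry libraries 24 and 23, with 49.1%, 36.2%, 45.9%, 32.6% and 18.5% of all tested genes. With untreated GFP cells of the same genotype as comparator, 23 members fell and 0 rose in caMEK1 mCherry cells (37.6% of all genes passed, 10% upward and 27.5% downward), and 22 fell and 2 rose in caMKK6 mCherry cells (35.9%, 21.6% upward and 14.3% downward).

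Among the regulators, Ppara (ENSMUSG00000022383.13, chr15:85734983-85802819, + strand), the receptor itself, was at 19.8 and 15.9 FPKM in control mCherry cells, 11.7, 11.5 and 17 in caMEK1 and 8.94 and 19.9 in caMKK6 mCherry cells. These groups overlapped, and the log2 fold changes were -0.40 ± 0.30 (adjusted p = 0.367) and -0.38 ± 0.33 (adjusted p = 0.392). In GFP cells Ppara was at 12.1, 8.71 and 12.1 in treated against 27.9, 21.8 and 19.7 in untreated caMEK1 mice, and at 8.93 and 16.5 against 43.1, 28.9 and 25.9 in caMKK6 mice. Treated and untreated GFP cells did not overlap in either genotype, and Ppara fell by 1.01 on the log2 scale (SE 0.27, adjusted p = 0.00774) and 1.32 (SE 0.30, adjusted p = 0.00762). In GFP cells of control mice Ppara was also lower on doxycycline without overlap, but it was not called there. Ppargc1a (ENSMUSG00000029167.13, chr5:51454250-51567726, - strand), the coactivator, was at 2.47 and 2.29 FPKM in control mCherry cells, 3.02, 3.93 and 6.26 under caMEK1 and 16.1 and 3.64 under caMKK6. Animal 1 of the caMKK6 pair carried most of that rise, and its GFP cells were also high (14.3 and 4.28 in animals 1 and 2, against 2.19, 2.45 and 1.86 untreated). Ppargc1a rose in caMKK6 mCherry cells by 1.40 ± 0.47 (adjusted p = 0.0286) and in caMKK6 GFP cells by 1.51 ± 0.43 (adjusted p = 0.0225), and the mCherry call was lost with median scaling, with quantile normalization and without the filter on low values. Under caMEK1 the change was 0.63 ± 0.43 (adjusted p = 0.311) in mCherry cells.

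Among the members for uptake, binding and storage, Fabp1 (ENSMUSG00000054422.7, chr6:71199827-71205023, + strand), the cytosolic carrier of fatty acids and a classical PPAR-alpha target, had the most negative log2 fold change of the 33 members in each of the 4 liver comparisons on the log2(FPKM + 1) scale. Its level was 781 and 579 FPKM in control mCherry cells, 51.8, 20.3 and 154 under caMEK1 and 15 and 147 under caMKK6. All 5 kinase libraries were below both controls. Fabp1 was 9.03-fold lower under caMEK1 (-3.59 ± 0.85, adjusted p = 0.00454) and 8.37-fold lower under caMKK6 (-3.79 ± 0.93, adjusted p = 0.00534), as ratios of mean FPKM with the log2 fold change on the log2(FPKM + 1) scale. In GFP cells it was 155, 109.6 and 167 against 3099.7, 1804 and 1347 untreated in caMEK1 mice, a 14.5-fold difference (-3.78 ± 0.76, adjusted p = 0.00111), and 11.9 and 70.3 against 3796, 2407 and 1284 in caMKK6 mice, a 60.7-fold difference (-6.23 ± 0.85, adjusted p = 0.000163). Treated and untreated GFP libraries did not overlap. In control mice GFP libraries on doxycycline were also below the untreated ones, without a call. Untreated libraries themselves varied from 1284 to 3796 FPKM, and control cells on doxycycline were lower than all of them in mCherry cells.

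The Fabp1 promoter is shown because Fabp1 had the most negative change on the log2(FPKM + 1) scale, although under caMEK1 its SE does not separate it from Crot, and because it held the closest match to a receptor motif among the 28 members with a promoter window (Acaa2, Decr1, Hsd17b4, Angptl4 and Vnn1 had none and were not searched). PPAR-alpha binds direct repeats of 2 AGGTCA copies with 1 base between them (DR1), searched here as these 13 bases, any base at position 7, on both strands in windows of 300 bases (250 before to 50 after the start) from RefSeq on GRCm38.p6. The part of the Fabp1 window before the GENCODE gene start covers chr6:71199629-71199826, + strand, 5′ to 3′, with the match on the opposite strand in capitals.
Fabp1 promoter: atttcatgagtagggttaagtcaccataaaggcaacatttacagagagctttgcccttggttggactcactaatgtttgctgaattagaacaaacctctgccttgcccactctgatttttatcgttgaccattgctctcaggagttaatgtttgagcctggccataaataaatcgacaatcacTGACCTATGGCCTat
Counting positions from 1 at the 5′ end of the motif, the match differs by T4C and begins 67 bases before the RefSeq start. With at most 1 mismatch it was the match of 1 member, 3.57% of the 28, against 0.644% of the 27025 symbols with a window, and 0.0481% of symbols held a perfect repeat, no member among them. With at most 2 mismatches 5 members held one (17.9%, against 4.4% of all symbols), and the other 4 are shown with 8 bases on either side, on the strand of the gene's transcript.
Acot4: ccgaagcaTGACCTTTGGCCGgtctgtgc
Cd36: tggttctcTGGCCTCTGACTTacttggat
Plin2: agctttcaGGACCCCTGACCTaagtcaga
Slc25a20: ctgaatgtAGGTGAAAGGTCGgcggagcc
These lie at chr12:84038358-84038386 (differences A1C and T4C), chr5:17835939-17835967 (G2A and T11C), chr4:86670264-86670292 (A8G and A13C) and chr9:108662134-108662162 (C5G and A13G). A match of letters is no measured binding site. The members with matches did not share a direction in liver. Fabp1, Plin2 and Slc25a20 fell in 1 or more of the comparisons above, whereas Acot4 rose in mCherry cells under both kinases and Cd36 rose in caMEK1 GFP cells.

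Cd36 and Plin2 handle uptake and storage. Cd36, a fatty acid translocase that macrophages also carry, was at 7, 9.78 and 43.8 FPKM in treated caMEK1 GFP cells against 3.12, 2.95 and 5.29 untreated, and the third library stood apart. The rise was 1.75 ± 0.55 (adjusted p = 0.0186), and the same library had the highest macrophage marker sum of the liver series, 534 FPKM over 8 markers against 51.8 in the lowest library of the group. The part of macrophage RNA in this rise was not tested. Plin2, which coats lipid droplets, was at 18.9, 13 and 21.4 against 73.3, 74.5 and 55 untreated in caMEK1 GFP cells and 11.1 and 38.5 against 100.4, 59.4 and 90.7 in caMKK6 GFP cells. It fell by 1.88 on the log2 scale (SE 0.46, adjusted p = 0.00421) and 1.91 (SE 0.51, adjusted p = 0.0171), while the mCherry comparisons gave -0.99 ± 0.51 (adjusted p = 0.171) and -0.91 ± 0.56 (adjusted p = 0.209).

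In the carnitine shuttle the inner steps fell and the entry step did not pass the test. Cpt2 (ENSMUSG00000028607.16, chr4:107903981-107923610, - strand), the inner membrane transferase that returns acyl groups to coenzyme A, was at 40.1 and 32.9 FPKM in control, 9.81, 10.4 and 10.8 in caMEK1 and 9.78 and 24 in caMKK6 mCherry cells. No kinase library reached a control one, and Cpt2 was 3.53-fold lower under caMEK1 (-1.72 ± 0.39, adjusted p = 0.00338) and 2.16-fold lower under caMKK6 (-1.19 ± 0.43, adjusted p = 0.0374). Slc25a20 (ENSMUSG00000032602.6, chr9:108662088-108684641, + strand), the carnitine acylcarnitine translocase, was at 12 and 12 in control, 6.65, 4.73 and 9.61 in caMEK1 and 4.27 and 7.91 in caMKK6 mCherry cells. It was lower in every kinase library than in both controls, with changes of -0.75 ± 0.27 (adjusted p = 0.0459) and -0.93 ± 0.29 (adjusted p = 0.0207). Cpt1a, the outer membrane enzyme that commits fatty acids to oxidation, was at 47.9 and 45.2 in control, 41.9, 32.5 and 68.9 in caMEK1 and 84.9 and 38.1 in caMKK6 mCherry cells. The groups overlapped, with changes of -0.03 ± 0.43 (adjusted p = 0.966) and 0.29 ± 0.47 (adjusted p = 0.672), and caMKK6 animal 1 was high in both colors (GFP 109.9 and 31.3 in animals 1 and 2).

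**Figure D2:**
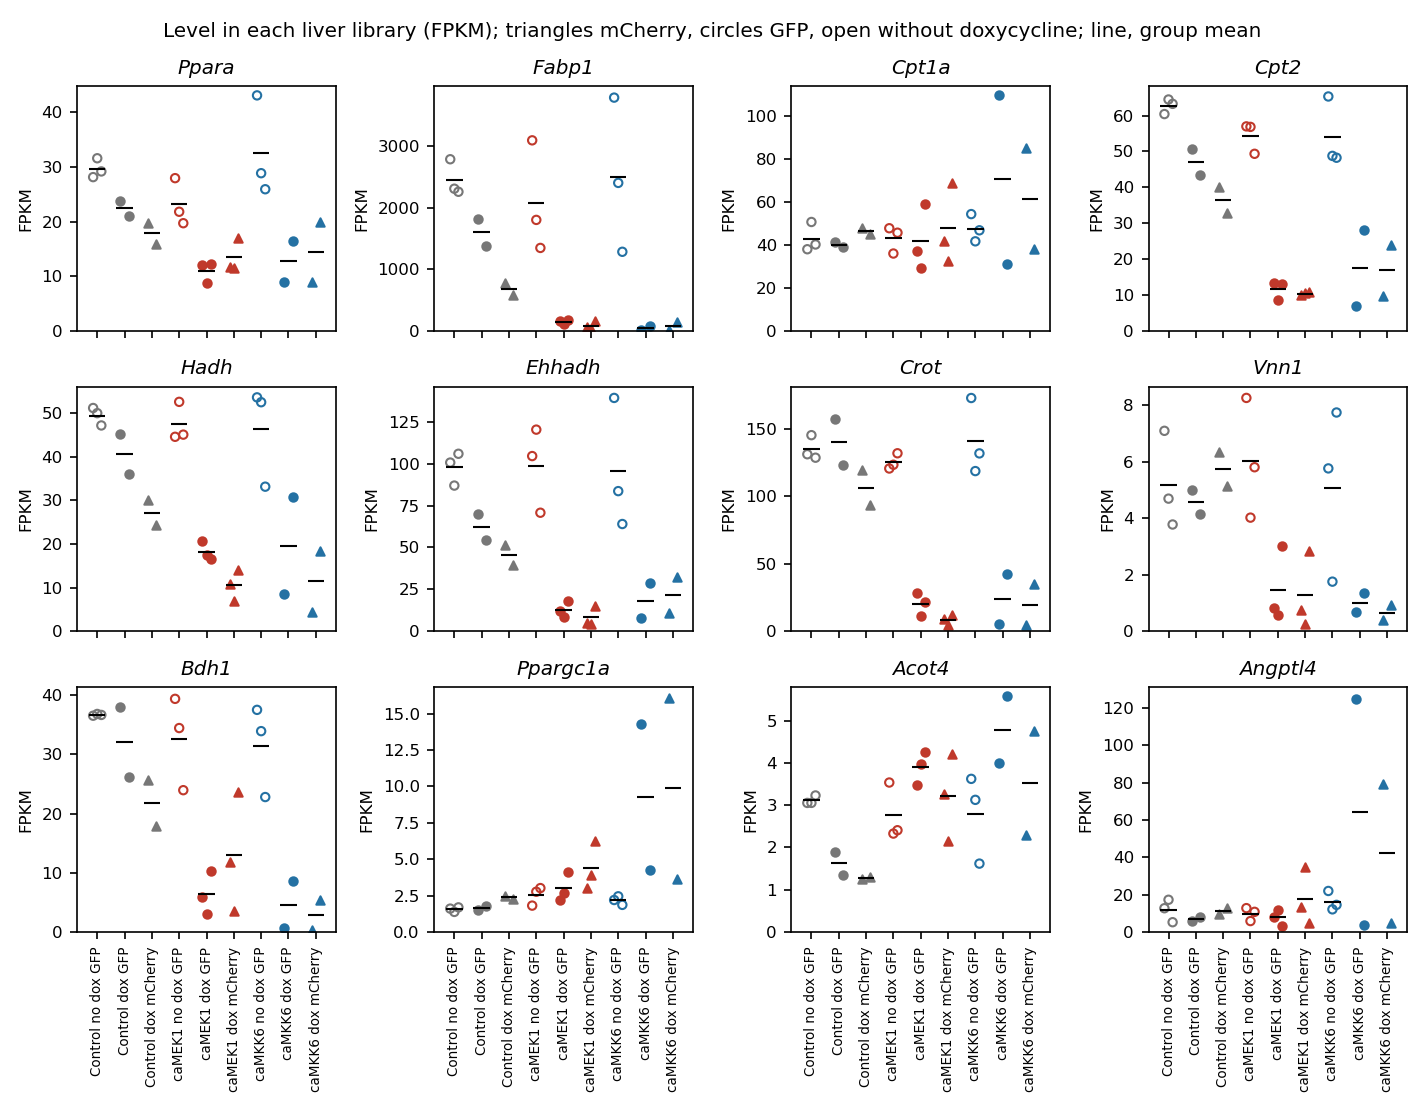
FPKM (vertical axis from 0) of 12 members in each of 23 liver libraries, 1 point per library, by group (9 groups on the horizontal axis), with triangles for mCherry, circles for GFP, open symbols without doxycycline and a line at each group mean. Cpt1a shows no step between untreated libraries and those of caMEK1 and caMKK6 mice on doxycycline. For Fabp1, Cpt2, Hadh, Crot and Vnn1, mCherry libraries of these treated mice lie below the control mCherry libraries. Their GFP libraries lie below the untreated libraries of their genotype. Bdh1 in caMEK1 mCherry cells overlaps its controls, and Ppargc1a and Angptl4 stand high in caMKK6 animal 1.

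Of the 8 enzymes of the mitochondrial spiral, 6 fell in caMEK1 and 2 in caMKK6 mCherry cells, and 8 and 7 fell in GFP cells. Among all genes tested 16.3% and 9.29% were called lower in these mCherry comparisons, and 32% and 13.8% in the GFP ones. The 2 caMKK6 mCherry calls did not survive leaving out any 1 library. Hadh (ENSMUSG00000027984.8, chr3:131233419-131272101, - strand), the short-chain hydroxyacyl-CoA dehydrogenase, was at 30.02 and 24.3 FPKM in control, 10.9, 6.91 and 14 in caMEK1 and 4.44 and 18.4 in caMKK6 mCherry cells. Every kinase library was below both controls, with changes of -1.32 ± 0.46 (adjusted p = 0.04) and -1.45 ± 0.50 (adjusted p = 0.0317). Acaa2 (ENSMUSG00000036880.10), the thiolase that ends each turn, was at 257 and 208 in control, 149.6, 97.2 and 156 in caMEK1 and 62.7 and 145 in caMKK6 mCherry cells. It fell under caMKK6 (-1.26 ± 0.35, adjusted p = 0.00995), and caMEK1 gave -0.81 ± 0.32 (adjusted p = 0.0684) without passing, although the groups did not overlap. Among the dehydrogenases, each for its own chain lengths, Acadvl, for very long chains, was at 99.8 and 85.6 in control, 49.9, 41.7 and 57.6 in caMEK1 and 76 and 93.2 in caMKK6 mCherry cells, and fell under caMEK1 (-0.89 ± 0.18, adjusted p = 0.00168) with -0.13 ± 0.20 (adjusted p = 0.64) under caMKK6. Acadm, for medium chains, gave -0.66 ± 0.24 (adjusted p = 0.0448) and 0.11 ± 0.26 (adjusted p = 0.773), and Acads, for short chains, -0.69 ± 0.21 (adjusted p = 0.0215) and -0.20 ± 0.23 (adjusted p = 0.528). Hadha and Hadhb, the subunits of the trifunctional protein, changed under caMEK1 by -1.12 ± 0.29 and -0.60 ± 0.19 on the log2 scale (adjusted p = 0.00818 and 0.0266).

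The auxiliary enzymes let unsaturated chains enter the spiral. Eci1 (ENSMUSG00000024132.6, chr17:24426641-24439348, + strand), the mitochondrial enoyl-CoA isomerase, was at 25.2 and 20.2 FPKM in control, 8.39, 4.74 and 8.34 in caMEK1 and 4.6 and 16.8 in caMKK6 mCherry cells. Decr1 (ENSMUSG00000028223.8, chr4:15917240-15945507, - strand), the mitochondrial dienoyl-CoA reductase, was at 20.8 and 17.8, 7.45, 4.61 and 8.7 and 2.93 and 11.6 in the same order. For both genes every kinase library lay below both controls. Eci1 changed by -1.56 ± 0.39 (adjusted p = 0.00702) under caMEK1 and -1.24 ± 0.43 (adjusted p = 0.0325) under caMKK6, and Decr1 by -1.39 ± 0.43 (adjusted p = 0.0243) and -1.52 ± 0.48 (adjusted p = 0.0193). The peroxisomal reductase Decr2 fell under caMKK6 (-1.06 ± 0.40, adjusted p = 0.0472) and gave -0.95 ± 0.37 (adjusted p = 0.0663) under caMEK1. Eci2, a further enoyl-CoA isomerase, passed in none of the 4 comparisons.

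In peroxisomal beta-oxidation all 5 of its members fell in caMEK1 mCherry cells and 2 of 5 in caMKK6 mCherry cells, and all 5 fell in the GFP cells of either genotype. The shares of all genes called lower were 16.3% and 9.29% in mCherry cells, and 32% and 13.8% in GFP cells. Crot (ENSMUSG00000003623.4, chr5:8966033-8997324, - strand), which hands shortened chains to the mitochondria as carnitine esters, was at 119 and 93.3 FPKM in control, 9.17, 4.42 and 12.2 in caMEK1 and 4.29 and 35.2 in caMKK6 mCherry cells. The groups were far apart, 12.4-fold lower under caMEK1 (-3.57 ± 0.69, adjusted p = 0.00103) and 5.39-fold under caMKK6 (-2.95 ± 0.76, adjusted p = 0.00692). GFP cells gave 28.4, 11.3 and 21.6 against 120.5, 123 and 132 in caMEK1 mice and 5.38 and 42.7 against 173, 119 and 132 in caMKK6 mice, changes of -2.65 ± 0.62 (adjusted p = 0.00314) and -3.07 ± 0.69 (adjusted p = 0.00701). Ehhadh (ENSMUSG00000022853.7, chr16:21761287-21787807, - strand), the bifunctional hydratase and dehydrogenase, was at 51.6 and 39.6 in control, 5.23, 4.55 and 15.3 in caMEK1 and 11.1 and 32.4 in caMKK6 mCherry cells. It was 5.46-fold lower under caMEK1 (-2.48 ± 0.53, adjusted p = 0.00219), and caMKK6 gave -1.20 ± 0.58 (adjusted p = 0.109). Hsd17b4, the other bifunctional enzyme, and Pex11a, a peroxisome proliferation factor, changed under caMEK1 by -1.17 ± 0.33 and -0.53 ± 0.18 (adjusted p = 0.0132 and 0.0367). The thiolase Acaa1a changed by -1.07 ± 0.18 there (adjusted p = 0.000305), with the limit that reads of its near-identical copy Acaa1b could be split between the 2.

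The thioesterases of the Acot cluster on chromosome 12, which release free fatty acids from coenzyme A, are near-identical copies, so reads may have been split among them and their values are uncertain. Acot4 rose in both mCherry comparisons, from 1.26 and 1.3 FPKM in control mCherry cells to 3.26, 2.16 and 4.21 under caMEK1 and 2.29 and 4.76 under caMKK6. The changes were 0.86 ± 0.26 (adjusted p = 0.0197) and 0.94 ± 0.28 (adjusted p = 0.0164), and neither Acot4 nor Acot2 passed under caMKK6 after median scaling. Untreated GFP libraries held 1.62 to 3.63 FPKM of Acot4, above both control mCherry libraries and overlapping the kinase libraries. Acot2 rose under caMKK6 (1.23 ± 0.42, adjusted p = 0.0293) on 1 library, with 0.58 and 6.28 in animals 1 and 2 against 0.514 and 0.372 in control. Acot1 was at 1.15 and 0.646 in control and at 0, 0.024 and 0 and 0 and 0.0914 in caMEK1 and caMKK6 mCherry cells, and Acot3 stayed below 2.1 FPKM in every liver library.

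Among the remaining members, Bdh1 (ENSMUSG00000046598.15, chr16:31422280-31458901, + strand), which makes the ketone body beta-hydroxybutyrate, was at 25.7 and 17.9 FPKM in control, 11.9, 3.54 and 23.7 in caMEK1 and 0.266 and 5.46 in caMKK6 mCherry cells. The caMEK1 libraries overlapped the controls (-0.99 ± 0.73, adjusted p = 0.348), and Bdh1 was 7.62-fold lower under caMKK6 (-2.97 ± 0.80, adjusted p = 0.00873). In GFP cells it was at 5.86, 3.07 and 10.2 against 39.4, 34.5 and 24 in caMEK1 mice and 0.655 and 8.54 against 37.5, 33.9 and 22.8 in caMKK6 mice, falls of 2.28 (SE 0.65, adjusted p = 0.0112) and 3.00 (SE 0.73, adjusted p = 0.0102) on the log2 scale. Pdk4, which blocks glucose oxidation, gave -0.56 ± 0.29 (adjusted p = 0.178) and 0.02 ± 0.32 (adjusted p = 0.973) in mCherry cells. Vnn1 (ENSMUSG00000037440.8, chr10:23894688-23905343, + strand), a surface pantetheinase used as a readout of PPAR-alpha activity, was at 6.34 and 5.14 in control, 0.762, 0.273 and 2.84 in caMEK1 and 0.395 and 0.926 in caMKK6 mCherry cells. All kinase libraries were below both controls, with changes of -1.71 ± 0.49 (adjusted p = 0.0153) and -2.03 ± 0.54 (adjusted p = 0.00812). Angptl4, a secreted inhibitor of lipoprotein lipase, passed in none of the 4 comparisons and was at 9.47 and 12.9 in control, 13.5, 34.9 and 4.92 in caMEK1 and 79.5 and 4.65 in caMKK6 mCherry cells, with 125 and 3.97 in caMKK6 GFP cells of animals 1 and 2.

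**Figure D3:**
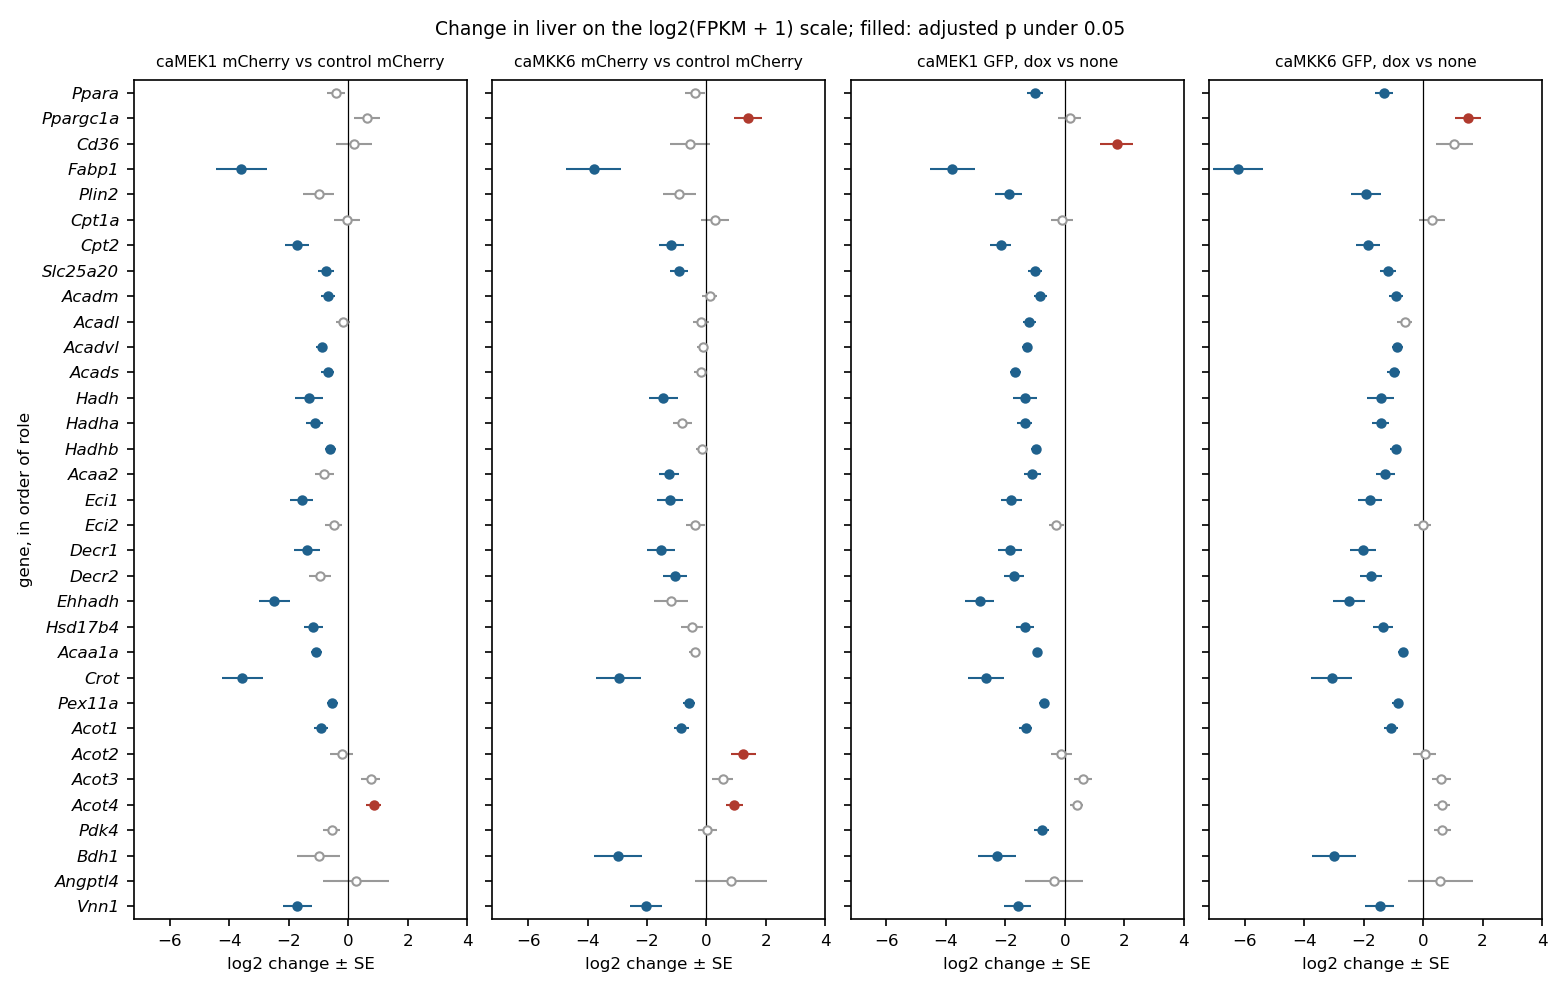
Log2 fold change on the log2(FPKM + 1) scale with its SE (bars) of the 33 members in 4 liver comparisons, mCherry cells of either kinase against control mCherry cells and GFP cells against untreated GFP cells of the same genotype, with filled points for adjusted p under 0.05. Most points lie left of 0 in all 4 panels, Fabp1 reaching -6.23 in caMKK6 GFP cells, and Ppargc1a lies right of 0 in all 4.

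The 2 caMKK6 animals differed in degree. Of 33 members, 28 were lower in animal 1 than in animal 2 in mCherry cells and 26 in GFP cells, the same 26 in both colors, and 13 were over 2-fold lower in both colors. Over 2-fold higher in animal 1 in both colors were 4 members, among them Ppargc1a and Angptl4. Fabp1, for example, was at 11.9 and 70.3 FPKM in GFP cells and Bdh1 at 0.266 and 5.46 in mCherry cells of animals 1 and 2. Animal 1 was also the one with the lower MKK6 transgene level, 216 against 1211 FPKM in mCherry cells. With 2 animals no test of this difference was made. The share of all genes that differed alike between these animals was not computed, so the counts are not read as particular to the module.

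Between mCherry and GFP cells of the same mice 0 members passed under caMEK1 (4.71% of all genes passed, 3.75% upward and 0.955% downward, and 1 member had an unadjusted p under 0.05) and 0 under caMKK6 (4.28%, 3.99% upward and 0.289% downward, and 2 members). With the animal as a block 3 and 3 members passed. Under caMEK1 these were Crot (-1.16 ± 0.36, adjusted p = 0.0325), Hadh (-0.77 ± 0.25, adjusted p = 0.0419) and Acaa1a (-0.41 ± 0.12, adjusted p = 0.0192), all lower in mCherry cells. Under caMKK6 the block gave Acaa2 lower in mCherry cells (-0.67 ± 0.23, adjusted p = 0.0388) and Acadm and Acot2 higher (0.65 ± 0.17 and 0.94 ± 0.33). In control mice 0 members passed (0.106% of all genes passed, 0.0193% upward and 0.0868% downward, with 0 at an unadjusted p under 0.05) and 1 passed with the block, Acads. Tested directly, the gap differed from the control gap for 0 members under either kinase (5.36% and 9.75% of all genes passed, 5.11% and 9.54% upward, 0.251% and 0.212% downward, with 0 and 1 members at an unadjusted p under 0.05), and with the block for 2 under caMEK1 and 4 under caMKK6, all toward higher mCherry values than the control gap. Most genes that passed without the block also went upward, so this direction is not particular to the members. The shares of all genes here are those without the block, and none were computed with it.

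The kinases were compared directly in mCherry cells, where the control libraries cancel. Under caMEK1, 4 members were lower than under caMKK6 and 1 was higher (31.7% of all genes passed, 4.52% upward and 27.2% downward). With libraries scaled to a common median, or quantile normalized, 1 was lower and 1 higher, and the calls of Acadm, Acadvl and Acaa1a were lost. Acot2 held under every other setting, but it rests on caMKK6 mCherry library 2 (6.28 FPKM), without which it did not pass the filter on low values, so 0 of the 5 calls survived leaving out any 1 library. Acadm (-0.77 ± 0.24), Acadvl (-0.76 ± 0.18), Acaa1a (-0.66 ± 0.18) and Acot2 (-1.45 ± 0.38) were lower under caMEK1, and Bdh1 was higher (1.98 ± 0.73), with adjusted p of 0.019, 0.00534, 0.00953, 0.00902 and 0.0458. For the other 28 members no difference between the kinases was called, which does not show that they were alike, and the 2 caMKK6 animals were far apart.

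Genes of the pathway outside the module were read from 4 lists. Beside them, 10.7% of all genes tested were called higher and 16.3% lower in caMEK1 mCherry cells, and 28.9% and 9.29% in caMKK6 mCherry cells. Of 29 tested other enzymes of beta-oxidation and ketogenesis, 18 fell and 0 rose in caMEK1 mCherry cells, and 15 fell and 2 rose under caMKK6, with median log2 fold changes of -1.26 and -0.97. The peroxisomal thiolase Acaa1b changed by -5.67 ± 0.85 and -4.47 ± 0.93 (adjusted p = 0.000115 and 0.00199), with the same limit on copies as Acaa1a. Scp2, the sterol carrier and thiolase, fell under caMEK1 (-3.33 ± 0.45, adjusted p = 3.94e-05) and gave -1.21 ± 0.49 (adjusted p = 0.0603) under caMKK6. Acacb, which makes the malonyl-CoA that restrains Cpt1a, fell under both (-2.21 ± 0.50 and -2.59 ± 0.54, adjusted p = 0.00318 and 0.00207). Of 19 genes for activation and transport, 13 fell and 2 rose under caMEK1, and 9 fell and 1 rose under caMKK6 (medians -1.05 and -0.86). Slc27a2, a very long chain acyl-CoA synthetase, fell by 2.91 (SE 0.40) and 1.62 (SE 0.44) on the log2 scale (adjusted p = 5e-05 and 0.00928), and Acsm1, a medium-chain acyl-CoA synthetase, changed by -2.79 ± 0.59 and -2.40 ± 0.64 (adjusted p = 0.00198 and 0.0087). Abcd2, a peroxisomal transporter of very long chain acyl-CoA, went the other way under caMEK1, at a mean of 27.2 FPKM against 0.184 in control (4.55 ± 0.31, adjusted p = 1.61e-08), and gave 0.51 ± 0.34 (adjusted p = 0.24) under caMKK6.

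Of 21 tested genes listed as further PPAR-alpha targets, 7 fell and 3 rose under caMEK1, and 6 fell and 2 rose under caMKK6 (medians -0.99 and -0.67). Whether the receptor raises or lowers each gene was not considered, so these calls are not read as receptor activity. The omega-hydroxylase Cyp4a12a fell by 8.10 (SE 0.54) and 6.29 (SE 0.59) on the log2 scale (adjusted p = 1.34e-08 and 2.44e-06), and the epoxide hydrolase Ephx2 by 3.12 (SE 0.30) and 1.22 (SE 0.32) (adjusted p = 7.71e-07 and 0.00822). Hepatic lipase, Lipc, fell under caMEK1 (-4.42 ± 0.67, adjusted p = 0.000121) and gave -0.90 ± 0.73 (adjusted p = 0.352) under caMKK6. Of 21 tested receptors, partners and coregulators, 4 fell and 1 rose under caMEK1, and 2 fell and 9 rose under caMKK6, with medians of -0.14 and 0.49 beside -0.04 and 0.25 for all genes. Lpin2, a phosphatidate phosphatase of the lipin family, fell under caMEK1 (-1.57 ± 0.41, adjusted p = 0.00911) and rose under caMKK6 (1.42 ± 0.45, adjusted p = 0.0212), and Rxrb, a partner of PPAR-alpha, and the deacetylase Sirt1 rose under caMKK6 (1.26 ± 0.41, adjusted p = 0.0248, and 1.18 ± 0.29, adjusted p = 0.00571). Markers of liver zones differed as well. The 9 pericentral markers summed to 2913 to 3025 FPKM in control, 187 to 484 in caMEK1 and 316 to 483 in caMKK6 mCherry cells, and the 8 periportal markers to 3715 to 3881, 1550.2 to 2266 and 3985 to 5493. In GFP cells the pericentral sum was 408 to 999 against 851 to 3396 untreated in caMEK1 mice and 1081 to 1512 against 1909.5 to 2178 in caMKK6 mice. Of 8 tested pericentral markers, 6 were called lower under caMEK1 and 5 under caMKK6, and their part in the module's fall was not tested. The 5 cholangiocyte markers summed to 27.8 to 113 under caMEK1 against 9.05 to 13.4 in control, with Krt7 and Epcam under 1 FPKM in both groups, and their part was not tested either.

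In colon epithelium 30 of the 33 members were tested, since Cd36, Fabp1 and Acot3 stayed under 1 FPKM in every library. The order of levels was another one, led in untreated cells by the short-chain dehydrogenase Acads at 106 ± 20.8 FPKM (SD, n = 9) and Hadh at 90.02 ± 10.4, which did not differ beyond their spread. In mCherry cells 11 members fell and 1 rose under caMEK1 (21.5% of all 11542 genes passed, 9.54% upward and 12% downward), and 8 fell and 0 rose under caMKK6 (20.8%, 11.1% upward and 9.7% downward), or 7 and 1 with median scaling. These comparisons share 2 control libraries. The members' median log2 fold change was -0.33 and -0.24, against -0.14 and -0.06 for all genes. The caMEK1 calls dropped from 12 to 6 without control mCherry library 2 and to 1 without caMEK1 mCherry library 2, and the caMKK6 calls from 8 to 5 without control mCherry library 1. Under caMKK6 5 calls survived leaving out any 1 library (Decr1, Decr2, Ehhadh, Hadh and Ppara).

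Both regulators fell in colon mCherry cells. Ppara was at 6.37 and 10.4 FPKM in control, 2.96 and 1.1 in caMEK1 and 1.96, 3.05 and 2.13 in caMKK6 mCherry cells, with no overlap, and changed by -1.67 ± 0.32 (adjusted p = 0.0012) and -1.45 ± 0.29 (adjusted p = 0.00211). Ppargc1a was at 22.7 and 6.97 in control, 3.55 and 1.84 in caMEK1 and 4.2, 4.39 and 3.72 in caMKK6 mCherry cells. All kinase libraries were below the lower control, and the changes were -1.93 ± 0.46 (adjusted p = 0.00589) and -1.43 ± 0.42 (adjusted p = 0.0209). The 2 controls were far apart, above and below the untreated colon range of 7.34 to 13.24 FPKM. Neither Ppargc1a call survived every omission of 1 library. Ehhadh was at 23.7 and 26.3 in control, 14.6 and 8.53 in caMEK1 and 12.5, 12.9 and 9.85 in caMKK6 mCherry cells, lower in every kinase library, with changes of -1.09 ± 0.21 (adjusted p = 0.00139) and -1.04 ± 0.19 (adjusted p = 0.00125). Hadh was at 87 and 92.8 in control, 67.7 and 37 in caMEK1 and 40.4, 17.5 and 16.5 in caMKK6 mCherry cells. Libraries of the kinases overlapped for Hadh. It fell under caMKK6 (-1.93 ± 0.30, adjusted p = 0.000245) and gave -0.83 ± 0.32 (adjusted p = 0.0747) under caMEK1. The difference between the kinases was 1.10 ± 0.30 (adjusted p = 0.0127), a call that did not survive every omission of 1 library. Angptl4 was the member that rose, from 0.276 and 0.872 in control to 6.09 and 4.97 in caMEK1 mCherry cells (2.07 ± 0.38, adjusted p = 0.000879), and it was the single call that survived leaving out any 1 library under caMEK1. In caMKK6 mCherry cells it was at 0.183, 1.68 and 0.658. The other members that fell did so by 0.62 to 0.86 on the log2 scale under caMEK1 (Bdh1, Cpt2, Hsd17b4, Acadvl, Hadhb, Crot, Decr1 and Decr2) and by 0.51 to 0.97 under caMKK6 (Decr1, Decr2, Crot and Bdh1).

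Few calls were made in the surrounding colon cells. In GFP cells 0 members fell and 1 rose under caMEK1 (1.33% of all genes passed, 0.91% upward and 0.425% downward), and 1 fell and 1 rose under caMKK6 (2.6%, 1.31% upward and 1.29% downward). Eci2 was the member that rose, at 17.6 and 13.2 FPKM against 8.39, 8.18 and 6.45 untreated in caMEK1 mice and 14.4, 12.2 and 11.5 against 8.12, 8.79 and 5.73 in caMKK6 mice, without overlap (0.91 ± 0.20, adjusted p = 0.0257 and 0.69 ± 0.18, adjusted p = 0.0471). Ppara fell in caMKK6 GFP cells (-0.999 ± 0.26, adjusted p = 0.0486). None of these 3 calls survived leaving out any 1 library. In control mice 0 members passed for doxycycline (0% of all genes passed) and 0 for color (0.0866%), each with 1 member at an unadjusted p under 0.05. Between the colors of an animal, under caMEK1, 10 members were lower and 1 higher in mCherry than in GFP cells (13.4% of all genes passed, 5.71% upward and 7.72% downward), and 19 passed with the animal as a block. The share of all genes with the block was not computed. Median scaling gave 6 calls here and quantile normalization 7, the count ranged from 0 to 14 without 1 library, and 0 of the 11 calls survived leaving out any 1 library. Under caMKK6, 11 were lower and 0 higher (21.3%, 8.24% upward and 13.1% downward), led by Hadh at 40.4, 17.5 and 16.5 in mCherry against 132, 110.2 and 99 in GFP cells of the same 3 mice (-2.26 ± 0.26, adjusted p = 2.16e-05). Between the kinases 3 members were higher and 3 lower under caMEK1 in colon mCherry cells (20.7% of all genes passed, 8.56% upward and 12.1% downward). Of these 6 calls, that of Angptl4 alone survived leaving out any 1 library. Goblet markers moved with caMEK1 here, 6 genes summing to 426 to 585 FPKM against 1451 to 4288 in control mCherry cells, and 4 stem cell markers summing to 6.92 to 7.61 against 23.5 to 54.4. Under caMKK6 the stem cell markers summed to 13.2 to 17.96, with 2 of 4 called lower (Axin2 and Ascl2), and the goblet markers to 3881 to 5866, with 2 of 6 called higher. The 4 enteroendocrine markers summed to 88.7 to 179.8 under caMKK6 against 19.8 to 45.6 in control, with Chga and Chgb called higher, and the macrophage marker Cd68 was called higher as well, at a sum of 2.72 to 5.77 over 8 macrophage markers against 0.997 to 1.44. The part of these markers in the module's changes was not tested. Of 28 tested other enzymes of beta-oxidation and ketogenesis, 10 fell and 1 rose in colon mCherry cells under caMEK1, and 9 fell and 1 rose under caMKK6.

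The tissues were compared in a joint fit of liver and colon, with the change of mCherry cells against control mCherry cells in liver minus that in colon. All 33 members were tested here. Under caMEK1 this differed for 8 members, 6 more negative in liver and 2 less (19.6% of all genes passed, 9.64% upward and 9.94% downward), and under caMKK6 for 7, 5 more negative and 2 less (23.6%, 16.4% upward and 7.13% downward). With median scaling the splits were 7 and 1 under caMEK1 and 9 and 1 under caMKK6, and with quantile normalization 5 and 4 under caMEK1. Without 1 library at a time the counts ranged from 4 to 10 and from 2 to 14. Under caMEK1 3 calls survived leaving out any 1 library (Acaa1a, Crot and Fabp1), and under caMKK6 1 did (Ppargc1a). Crot was among the more negative ones under both kinases, with differences of -2.88 ± 0.77 (adjusted p = 0.0068) and -2.26 ± 0.77 (adjusted p = 0.0306), and so was Fabp1 (-3.95 ± 0.96, adjusted p = 0.00311 and -3.61 ± 0.96, adjusted p = 0.00646), which colon lists under 1 FPKM in every library, so that its difference restates the liver change. Ppargc1a had the opposite sign under both, 2.57 ± 0.66 (adjusted p = 0.00503) and 2.83 ± 0.66 (adjusted p = 0.0023), and Ppara under caMEK1 (1.27 ± 0.45, adjusted p = 0.0432). Of the 18 members that fell in liver and the 11 that fell in colon mCherry cells under caMEK1, 7 were shared, and of 13 and 8 under caMKK6, 5 were shared, namely Hadh, Decr1, Decr2, Crot and Bdh1. The share of all genes that fell in both tissues was not computed, so no common response is read from these overlaps.

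In MEF 27 members were tested, because Ppara, Ppargc1a, Fabp1, Ehhadh, Acot3 and Acot4 did not reach 1 FPKM in 3 libraries. Ppara was at 0.0935 FPKM or less in untreated cells of either genotype, so this receptor was hardly listed here. Plin2 led the order of levels at 53.3 ± 7.48 FPKM (SD, n = 6), ahead of Acadl (36.7 ± 3.25) and Acadvl (35.1 ± 2.47), which did not differ beyond their spread. Members moved both ways. Under caMEK1 7 rose and 7 fell at day 2 (39.3% of all 11347 genes passed, 19.5% upward and 19.8% downward), 8 and 9 at day 4 (57.8%, 28.5% upward and 29.3% downward), and 9 and 7 at day 7 (62.1%, 33.4% upward and 28.7% downward). Under caMKK6 4 rose and 11 fell at day 2 (39.2%, 14.3% upward and 24.8% downward), 5 and 6 at day 4 (44.8%, 17.1% upward and 27.7% downward), and 10 and 3 at day 7 (40.8%, 16.8% upward and 24% downward). With median scaling caMEK1 gave 5 and 8 at day 2, and caMKK6 gave 7 and 5 at day 4 and 13 and 1 at day 7. The members called made up 40.7% to 63% of the 27 tested, and the 3 days share the untreated libraries of their genotype. Untreated MEF were sequenced at day 2 only, and no MEF without a kinase allele were included. Kinase, doxycycline and, at days 4 and 7, time in culture therefore cannot be told apart. At day 7 the members' median log2 fold change was 0.09 under caMEK1 and 0.14 under caMKK6.

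Angptl4 changed most under caMEK1. It was at 4.35, 4.44 and 6 FPKM without doxycycline, 114, 122 and 153 at day 2, 86.7, 91.4 and 124 at day 4 and 55.8, 61.3 and 81.5 at day 7, above every untreated library throughout and 13.4-fold up at day 7 (3.49 ± 0.20, adjusted p = 1.78e-11). Under caMKK6 it went from 2.51, 3.66 and 4.25 to 8.39, 12.3 and 10.9 at day 2 and 6.81, 8.31 and 5.53 at day 7, 0.82 ± 0.20 (adjusted p = 0.00306). Among the others that rose at day 7 under caMEK1, Decr2 went from 7.8, 8.11 and 8.25 to 15.1, 16.2 and 12.3 (0.77 ± 0.09, adjusted p = 5.86e-07) and Acaa1a from 6.85, 7.53 and 7.11 to 13.6, 12.4 and 11.3 (0.72 ± 0.10, adjusted p = 6.67e-06). The largest falls at day 7 of caMEK1 were those of Vnn1, from 3.11, 2.6 and 4.31 to 0.9, 1.21 and 1.45 (-0.98 ± 0.23, adjusted p = 0.000994), Bdh1, from 1.95, 2.66 and 2.68 to 0.751, 0.729 and 0.981 (-0.91 ± 0.12, adjusted p = 2.57e-06), and Decr1, from 11.3, 11.5 and 12 to 7.96, 6.79 and 7.72 (-0.57 ± 0.08, adjusted p = 2.86e-06). Treated and untreated libraries did not overlap for these.

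Under caMKK6 the lipid droplet protein Plin2 led, from 64.8, 47.7 and 49.7 FPKM without doxycycline to 186, 140.5 and 114 at day 2, 182, 189.7 and 137 at day 4 and 161, 198 and 113 at day 7 (1.496 ± 0.20, adjusted p = 8.92e-06). All treated libraries were above all untreated ones. Acot2 went from 1.66, 2.22 and 2.11 to 4.43, 6.05 and 4.84 at day 7 (1.02 ± 0.11, adjusted p = 5.73e-07), and Cd36 from 4.01, 0.985 and 6.4 to 15.7, 3.41 and 15.6 (1.35 ± 0.50, adjusted p = 0.0371), where the libraries with the number 2 were low in both groups and the groups overlapped. Macrophage markers ran alongside, the 8 genes summing to 119, 29.4 and 201 FPKM without doxycycline and 581, 78.3 and 652 at day 7 in libraries 1, 2 and 3, with 1 of 5 tested called higher (Cd68, 1.01 ± 0.38, adjusted p = 0.0388) and Clec4f at 0. Under caMEK1 they summed to 22.9 to 43.4 untreated and 96.9 to 246.7 at day 7, with Cd68 and Lyz2 called higher. The part of macrophage RNA in these changes was not tested. Hadh fell first and partly returned, from 10.03, 10.2 and 11 to 3.89, 3.53 and 4.55 at day 2 (-1.20 ± 0.11, adjusted p = 5.42e-07), 4.93, 4.08 and 5.37 at day 4 and 7.45, 5.35 and 8.72 at day 7 (-0.50 ± 0.11, adjusted p = 0.00174). Every treated library stayed below every untreated one, while caMEK1 cells at day 7 had 13.2, 11.1 and 11.5 against 11, 10.7 and 11. Crot and Acaa2 fell at day 7 of caMKK6 as well, with changes of -0.27 ± 0.10 and -0.23 ± 0.07 (adjusted p = 0.0395 and 0.0184). The day 7 calls of Crot, Acaa2 and Cd36 survived neither every omission of 1 library nor all other settings, and that of Hadh did not hold under all other settings. Without the caMKK6 libraries that list the MEK1 transgene, an alternative added after seeing the data, the caMKK6 calls went from 15 to 8 at day 2, from 11 to 7 at day 4 and from 13 to 7 at day 7. This leaves 1 untreated caMKK6 library for all 3 days and 1 treated library at day 2, so the test assumes that these lone libraries vary like the other MEF groups.

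The day 7 changes differed between the kinases for 14 members, 7 in each direction (37.8% of all genes passed, 23.3% upward and 14.5% downward), and with median scaling for 4 more positive and 9 more negative under caMEK1. Acot2 and Hadhb had opposite calls, -0.40 ± 0.11 under caMEK1 and 1.02 ± 0.11 under caMKK6 for Acot2, and -0.55 ± 0.07 and 0.25 ± 0.07 for Hadhb, with differences of -1.42 ± 0.15 (adjusted p = 3.87e-07) and -0.80 ± 0.10 (adjusted p = 3e-06). Hadhb, the thiolase subunit of the trifunctional protein, went from 6.15, 5.75 and 5.98 to 3.42, 3.89 and 3.99 FPKM under caMEK1 and from 4.83, 5.94 and 5.29 to 6.46, 7.34 and 5.95 under caMKK6. Cpt1a rose at day 7 under both, from 8.22, 8.82 and 10.3 to 13.5, 14.5 and 16.1 under caMEK1 and from 8.76, 8.87 and 8.51 to 10.04, 12.9 and 11.6 under caMKK6 (0.64 ± 0.10, adjusted p = 1.79e-05 and 0.36 ± 0.10, adjusted p = 0.00767). The caMKK6 call of Cpt1a survived neither every omission of 1 library nor all other settings, and that of Hadhb did not survive every omission of 1 library. Of the 9 members that rose at day 7 under caMEK1 and the 10 under caMKK6, 7 were shared, and of the 7 and 3 that fell, 0 were shared. Both changes are against untreated cells of day 2, so time in culture and doxycycline are part of what is shared. The share of all genes called alike in both genotypes was not computed. Of 22 tested other enzymes of beta-oxidation and ketogenesis, 10 fell and 6 rose at day 7 under caMEK1, and 1 fell and 4 rose under caMKK6. The 6 fibroblast markers summed to 1303 to 1400.3 FPKM at day 7 of caMEK1 against 2046 to 2430.3 untreated, and to 2134 to 2548 against 2339 to 2788 for caMKK6, and their part was not tested. Liver and MEF were not compared in 1 fit.

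**Figure D4:**
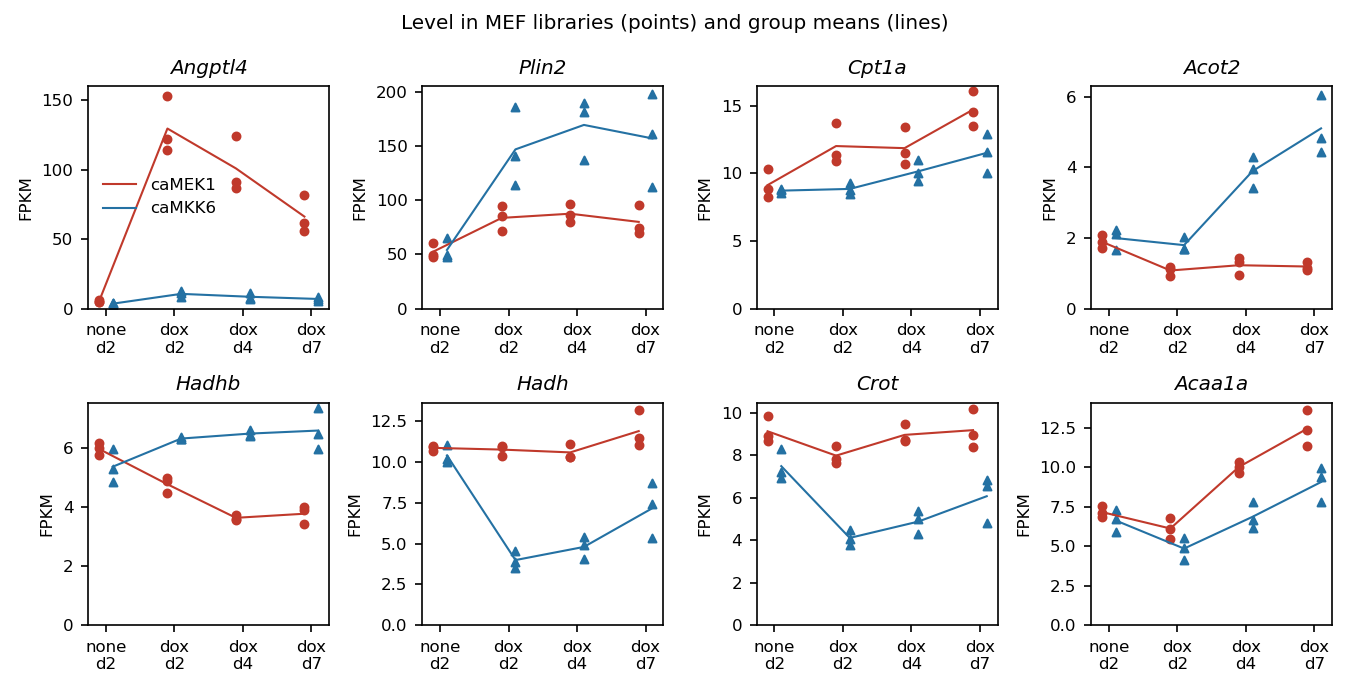
FPKM (vertical axis from 0) of 8 members in MEF without doxycycline at day 2 and on it at days 2, 4 and 7, 1 point per library and a line through the group means, for caMEK1 (circles) and caMKK6 (triangles). Angptl4 stands far above its untreated level under caMEK1 on every day, Plin2 is highest under caMKK6, and Hadh and Crot under caMKK6 are lowest at day 2 and higher again at day 7.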

How the data were processed

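Bulk RNA-seq of 70 libraries in 26 groups was used. The authors deposited 1 table of FPKM values for all libraries, with 21859 genes and 4 transgene or reporter entries. Per the submitters' processing notes, reads were trimmed with cutadapt 1.12 and aligned to mm10 with STAR 2, and the counting tool is not given in the sources used here. FPKM steps gave whole reads for 100% of values under 1000 reads (tolerance 0.02) in the 21191 genes with a length in GENCODE mouse release 21, and the 668 other genes were left out of that step only.

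FPKM was tested as log2(FPKM + 1) with limma 3.58.1 (R 4.3.3; lmFit, eBayes with trend, two-sided), in 1 fit per tissue over all its groups and 1 joint fit of liver and colon. Genes needed 1 FPKM in 2 libraries (3 in MEF). P-values were Benjamini-Hochberg adjusted over all genes tested and called under 0.05, in 29 comparisons. Tables and figures were made with Python 3.11.15, pandas 2.3.3, numpy 2.4.6 and matplotlib 3.10.9. The procedure was tested on simulated data.

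The members and lists were chosen with earlier results of these data known. Values per library are given for Ppara and Ppargc1a and, within each role, for the 2 members with the largest called change in liver mCherry cells at 5 FPKM or more, and for the 3 largest called changes per direction in colon and in MEF at day 7, and up to 3 called genes from each other list. Cpt1a, Cd36, Plin2, Acadvl, Acot1, Acot2, Acot4 and Angptl4 in liver, Hadhb, Cpt1a and Angptl4 under caMKK6 in MEF, Hadh under caMEK1 and Eci2 in GFP cells of colon were described after their values were seen. Alternatives were another pseudocount (0.1), no filter, median scaling, quantile normalization, voom on recovered reads, a replicate block, another comparator and leaving out each library. Further alternatives for MEF, without the libraries that list the MEK1 transgene and with a block within genotype, were chosen after seeing the data.

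Same-animal libraries of the 2 colors deviated together from their group means (correlations 0.396 to 0.817), so the animal pairs them. MEF numbers paired libraries within a genotype (0.112 to 0.803). Where labels name no separate animal or culture, p-values measure only the spread between these samples, which may be technical.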

Additional observations from a re-analysis of the deposited data

Results flagged for a closer look

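The change of mCherry cells against control mCherry cells differed between liver and colon under caMEK1, tested as a liver minus colon difference on the log2(FPKM + 1) scale. It was 1.27 for Ppara, 2.57 for Ppargc1a, -3.95 for Fabp1, -1.34 for Slc25a20, -0.98 for Hadha, -1.38 for Acaa2, -1.19 for Acaa1a and -2.88 for Crot. Under caMKK6 the difference was 2.83 for Ppargc1a, -3.61 for Fabp1, -2.26 for Crot, -1.83 for Acot1, 0.98 for Acot4, -2.47 for Bdh1 and -2.51 for Vnn1. Fabp1 was under 1 FPKM in every colon library, so both of its values restate the liver change. Of the 8 calls under caMEK1, 3 survived leaving out any 1 library (Acaa1a, Crot and Fabp1), and of the 7 under caMKK6 1 did (Ppargc1a).

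The kinases differed directly in mCherry cells, given as caMEK1 minus caMKK6 on the log2 scale. In liver the difference was -0.77 for Acadm, -0.76 for Acadvl, -0.66 for Acaa1a, -1.45 for Acot2 and 1.98 for Bdh1. Median scaling and quantile normalization each lost the calls of Acadm, Acadvl and Acaa1a, and 0 of the 5 calls survived leaving out any 1 library, Acot2 being untested without caMKK6 mCherry library 2. In colon it was -0.81 for Acadvl, 1.10 for Hadh, 0.79 for Acaa2, -0.80 for Hsd17b4, -1.19 for Acot1 and 1.90 for Angptl4. Of these 6 colon calls, that of Angptl4 alone survived leaving out any 1 library.

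In MEF the day 7 changes differed between the kinases, given as the change under caMEK1 minus that under caMKK6. The lower ones under caMEK1 were Plin2 (-0.90), Acadvl (-0.50), Hadha (-0.36), Hadhb (-0.80), Decr1 (-0.57), Acot2 (-1.42) and Bdh1 (-1.05). The higher ones were Acadl (0.22), Acads (0.37), Hadh (0.62), Acaa2 (0.32), Decr2 (0.43), Pex11a (0.49) and Angptl4 (2.67).

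The MEK1 transgene was listed in MEF libraries labelled caMKK6, which the comparisons do not read. It stood at 10.96 and 16.01 FPKM in libraries 2 and 3 without doxycycline, 16.53 and 12.23 in libraries 2 and 3 at day 2, and 14.92 in library 2 at day 4.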

How the results depend on the processing

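No call of a single member changed sign under any alternative, and of 365 counts of called members under the alternatives, 307 stayed within 1.5 times the main count. Quantile normalization gave 11 calls for caMEK1 mCherry cells and 14 for caMEK1 GFP cells in liver, 2 between the kinases in liver (also 2 with median scaling), and 7 between the colors of caMEK1 colon (6 with median scaling). The replicate block gave 3 and 3 calls between the colors in caMEK1 and caMKK6 liver, 1 in control liver, 19 in caMEK1 colon, and 2 and 4 for the color gaps of caMEK1 and caMKK6 against control. The block moved no other count by over 1.5 times, and shares of all genes were not computed with it. In MEF it gave 15, 17 and 16 calls for caMEK1 and 15, 12 and 14 for caMKK6 at days 2, 4 and 7. There it joined equal numbers across genotypes, whose deviations had a median correlation of -0.07. The main MEF tests used no block, although numbers paired libraries within a genotype. A block within genotype moved no MEF count by over 1.5 times. With control GFP cells on doxycycline as comparator, caMEK1 GFP colon gave 2 calls and caMKK6 GFP colon 0, and the latter gave 1 with a pseudocount of 0.1, 0 without a filter and 0 with voom. Leaving out the caMKK6 MEF libraries that list the MEK1 transgene gave 8, 7 and 7 calls at days 2, 4 and 7, with 1 untreated library left and, at day 2, 1 treated one, whose spread is taken from the other groups. The cause of these shifts was not tested.

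Without 1 library at a time, counts in liver ranged from 5 to 17 for caMEK1 mCherry, 2 to 19 for caMKK6 mCherry, 23 to 25 for caMEK1 GFP, 1 to 27 for caMKK6 GFP, 0 to 2 between the colors of caMKK6 mice, 0 to 3 for their gap against control and 3 to 9 between the kinases. In colon they ranged from 1 to 14 for caMEK1 mCherry, 5 to 8 for caMKK6 mCherry, 0 to 1 for either GFP comparison, 0 to 14 and 8 to 11 between the colors of caMEK1 and caMKK6 mice, 3 to 7 between the kinases and 0 to 1 for doxycycline in control mice. The differences between tissues ranged from 4 to 10 under caMEK1 and 2 to 14 under caMKK6. In MEF the counts ranged from 9 to 17 over the 6 comparisons with untreated cells and from 11 to 14 for the day 7 difference. Several mCherry groups hold 2 libraries, which limits their precision.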
